A study of Mus musculus with 18 samples.

Results

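The 15 Argonaute 2 (Ago2) binding peaks that the submitters assigned to Smad7 or Acvr1b were examined in mouse colonic epithelium with wild-type or oncogenic K-Ras. The members were all merged peaks whose annotated target gene is Smad7 (7 peaks) or Acvr1b (8 peaks), of 5554 merged peaks in all. The data come from HEAP, a form of CLIP-seq in which Halo-tagged Ago2 is pulled down from UV-crosslinked tissue, so that the RNA fragments and the miRNAs held by Ago2 can be sequenced as separate libraries. The WT group came from Halo-Ago2/+; Fabp-Cre/+ mice and the G12D group from Halo-Ago2/+; Fabp-Cre/+; K-Ras-G12D/+ mice, so both groups carried the tagged Ago2 and the Cre. All were C57BL/6 mice of 8 to 12 weeks, and the tissue was distal colon scraped to enrich for epithelium. Each group had 3 pulldown libraries and 3 miRNA libraries. The labels do not say whether each library came from its own animal, so p-values measure the spread between these libraries, which may be technical. Input control libraries, 6 in number, are not used here, and a change of Ago2 binding and a change of the transcript's level cannot be told apart, nor can fewer cells of a type and less RNA per cell.

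Acvr1b encodes a type I receptor of the activin branch of the TGF-beta superfamily, also known as ALK4, which phosphorylates SMAD2 and SMAD3 once a ligand has assembled the receptor complex. Smad7 encodes an inhibitory SMAD that binds activated type I receptors, competes with receptor-activated SMADs and recruits ubiquitin ligases to the receptors, and its own transcription is induced by TGF-beta signalling. In the intestinal epithelium the TGF-beta pathway is known for restraining proliferation. Ago2 is guided to messenger RNAs by the seed of its miRNA, and an 8-base match (8mer) pairs with the whole seed and carries an A opposite the first base of the miRNA. The 7m8 class lacks that A, the 7A1 class lacks the pairing of the last seed base, and a 6mer match lacks both.

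The miRNAs of the families with the longest matches at Smad7 peaks 5 and 6 and at Acvr1b peaks 1, 5 and 6, on which the results turn, are printed below with the 2 families that share part of their seeds, as RefSeq lists them, 5′ to 3′, with the seed (bases 2 to 8) in capitals. For each family the member with the highest mean in the miRNA libraries is shown.
let-7b-5p: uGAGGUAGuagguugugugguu
miR-196b-5p: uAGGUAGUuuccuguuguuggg
miR-16-5p: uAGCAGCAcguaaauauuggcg
miR-103-3p: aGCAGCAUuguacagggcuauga
miR-484: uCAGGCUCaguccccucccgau
miR-194-5p: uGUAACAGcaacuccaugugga
The 8mer site is CTACCTCA for let-7, TGCTGCTA for the miR-15/16 family, GAGCCTGA for miR-484 and CTGTTACA for miR-194-5p. All 9 let-7 family members and all 6 miR-15/16 family members in the miRNA table share their family's seed. The let-7 and miR-196 seeds share the 6 bases AGGUAG, and the miR-15/16 and miR-103/107 seeds share GCAGCA. Accordingly all 454 peaks annotated with a let-7 7m8 or 8mer match also carry a miR-196 annotation, against 10% of all peaks. Of the 257 peaks with such a miR-15/16 match, 256 also carry a miR-103/107 annotation. An annotation of the second family at such a peak need not be a separate site.

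The pulldown libraries held 54401 to 148770 reads in merged peaks in the WT group and 148927 to 723937 in the G12D group. One read was worth 1.29 to 2.90 normalized reads in the WT libraries and 0.206 to 1.09 in the G12D libraries, so a WT value under 3 rests on 1 or 2 reads. Of the 15 markers of colonic epithelium, 14 had a peak, with summed values of 11910 to 12620 in the WT libraries and 8180 to 9886 in the G12D libraries; none of 10 muscle and stroma, 9 blood and endothelium or 6 enteric neuron and glia markers had one. In limma's test over 4438 peaks, with Benjamini-Hochberg adjustment and a threshold of 0.05, 36.2% of peaks were higher and 12.7% lower in G12D. The median log2 fold change was 1.05 on the log2(normalized reads + 1) scale used throughout. This split depends on the scaling. Higher peaks made up 74.1% of the calls, but 52.1% with quantile normalization (median 0.16), 55% with edgeR (median 0.47) and 59.4% with DESeq2 (median 0.66).

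The main feature of Smad7 was an opposite change at 2 of its peaks that lie 430 bases apart near the end of the gene. A peak with a let-7 8mer, in the exon class of the annotation, was the strongest Smad7 peak in WT and fell in G12D. A peak with a miR-15/16 8mer, in the 3′ UTR, rose in G12D and became the strongest. Smad7 lies on the plus strand of chromosome 18 (75367365 to 75395935, GRCm38).

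The let-7 peak, Smad7 peak 5 in order along the gene, spans 50 bases (75393941 to 75393990) and stands in both genotypes' peak lists. It held 161, 78.3 and 113 normalized reads in the 3 WT libraries and 33.8, 31.6 and 50.3 in the 3 G12D libraries. Each WT library lay above each G12D library. The log2 fold change was −1.55 ± 0.38 (SE, limma adjusted p = 0.00606). Among peaks listed in both genotypes, 25.6% were lower in G12D, with a median of −0.45. Of all 226 tested peaks with a let-7 8mer, 20 were lower and 84 higher in G12D, beside 12.7% and 36.2% of all tested peaks.

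The miR-15/16 peak, Smad7 peak 6, spans 49 bases (75394421 to 75394469) and stands in the G12D list only. Its values were 31.8, 20.3 and 14.2 in WT and 118, 90.2 and 115 in G12D. All 3 G12D libraries exceeded all 3 WT libraries. The log2 fold change was 2.30 ± 0.39 (SE, limma adjusted p = 0.000809). Among peaks listed in G12D only, 47.0% were higher in G12D, with a median of 1.68, so a rise is common in that class. Of 69 tested peaks with a miR-15/16 8mer, 24 were higher and 5 lower, beside 36.2% and 12.7% of all tested peaks. Neither Smad7 call was lost, and neither direction turned, in any alternative run, edgeR, DESeq2 and thinning to equal depth included.

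**Figure D1:**
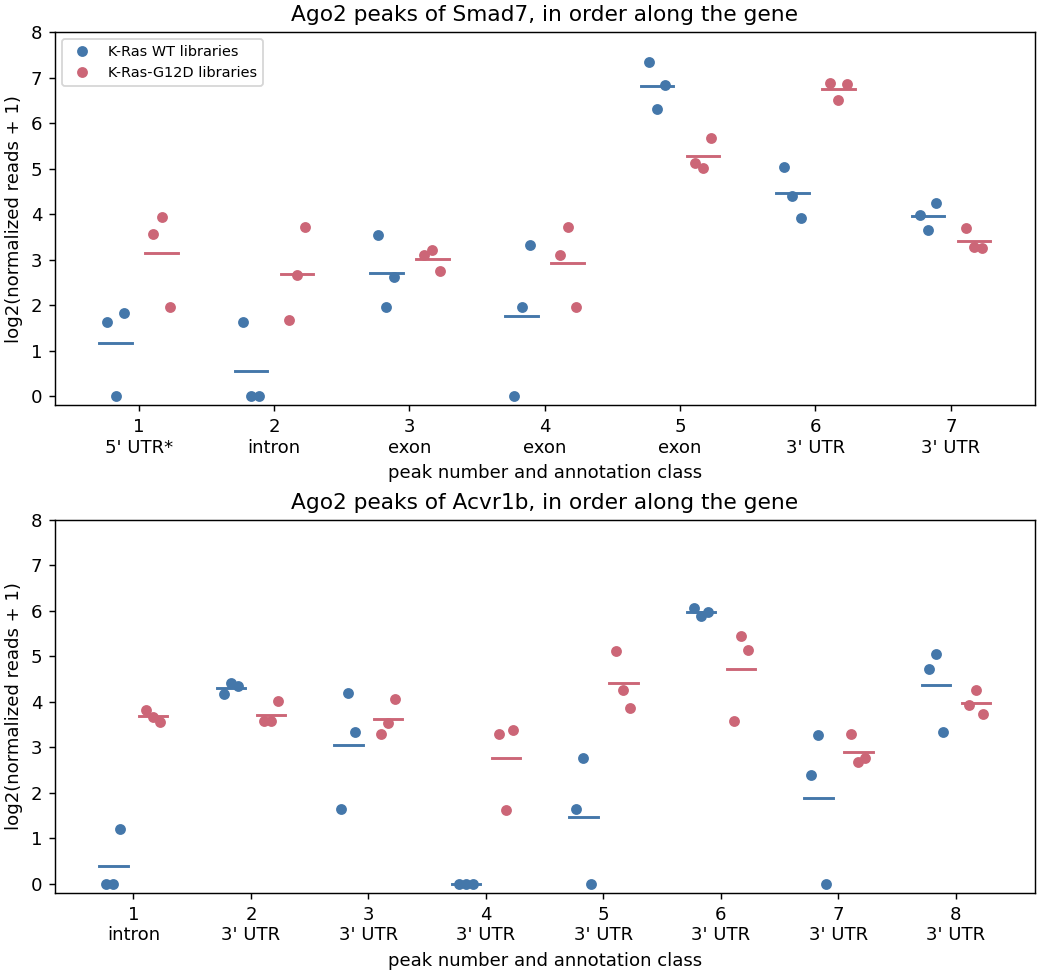
Normalized reads of each Smad7 (top) and Acvr1b (bottom) peak, as log2(normalized reads + 1), with 1 point per pulldown library (3 WT, 3 G12D) and a line at each group's mean. Smad7 peak 5 is lower and peak 6 higher in all 3 G12D libraries, and Acvr1b peak 4 is at 0 in all 3 WT libraries and Acvr1b peak 1 in 2 of them.

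The ratio of reads in the miR-15/16 peak to reads in the let-7 peak is free of library scaling; it was chosen after the values were seen. It was 0.197, 0.259 and 0.125 in the WT libraries and 3.48, 2.86 and 2.29 in the G12D libraries. The widest exact (Clopper-Pearson) 95% interval among WT libraries was 0.0953 to 0.610, from 7 and 27 reads, and the lowest bound among G12D libraries was 1.72; such intervals cover counting error only. The groups differed by 3.93 on the log2 scale, with an exact permutation p of 0.1 (two-sided), the smallest that 3 against 3 libraries can give. In WT both peaks together held 83.4% ± 4.28 of the reads of Smad7, and in G12D they held 78.0% ± 6.16 (SD, n = 3).

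As a share of Smad7 reads, the let-7 peak went from 69.9% ± 2.44 to 20.5% ± 4.29 and the miR-15/16 peak from 13.5% ± 4.44 to 57.5% ± 4.27 (SD, n = 3; exact permutation p = 0.1 for each). The groups did not overlap in either share. Each peak was also tested against the other tested peaks of its gene with limma's diffSplice, in which a change shared by the whole gene cancels; over all genes this test called 29.7% of 2965 peaks. The let-7 peak fell relative to the other Smad7 peaks by 2.60 ± 0.70 on the log2 scale (SE, limma adjusted p = 0.00482). The miR-15/16 peak rose by 2.02 ± 0.70 relative to them (limma adjusted p = 0.0269). The first call was lost with quantile normalization (limma adjusted p = 0.0963) and without G12D replicate 1 or 2 (0.0506 and 0.0530). The second was lost with no filter, a pseudocount of 0.5, or without WT replicate 3 or any 1 of the G12D libraries (0.0590 to 0.130). In both tests the other Smad7 peaks include peaks 1 and 4, with WT means of 1.57 and 3.97. These passed the filter on the mean through their G12D values, which favours a relative fall of the let-7 peak.

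**Figure D2:**
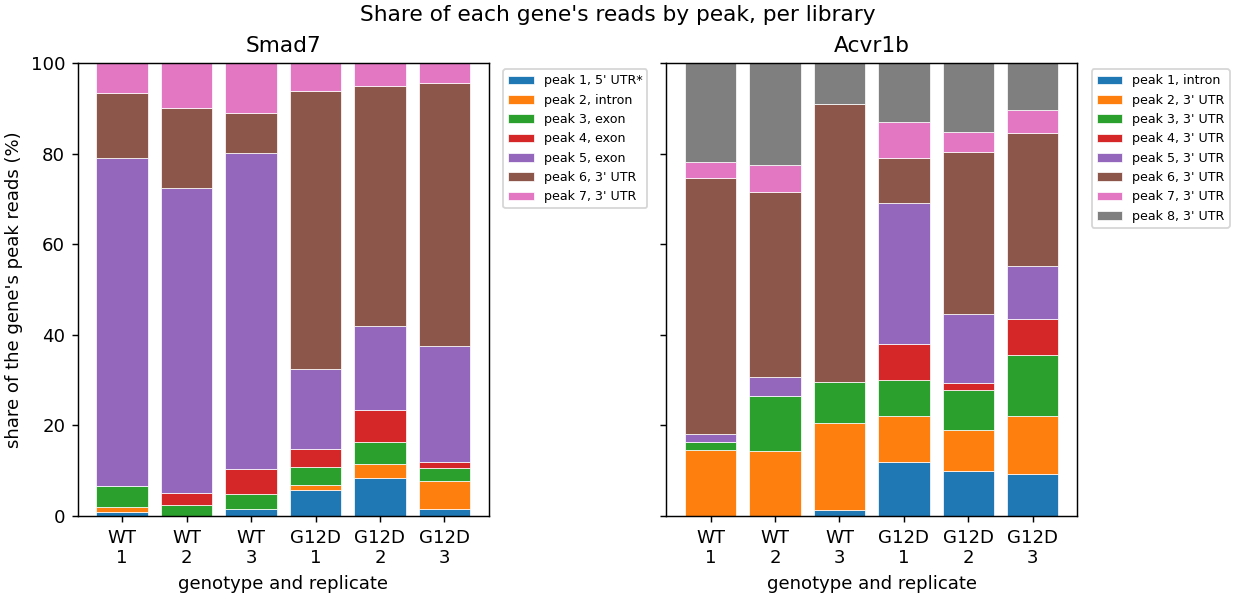
Share of each gene's peak reads (percent) that each peak took, as stacked bars for each pulldown library. For Smad7 the exon peak 5 takes 67.5% to 72.4% in WT and 17.6% to 25.5% in G12D, and for Acvr1b the 3′ UTR peak 6 takes 40.8% to 61.5% in WT and 10% to 35.8% in G12D.

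The other 5 Smad7 peaks were smaller, and all stand in the G12D list only. Peak 1 (75369527 to 75369575) is annotated utr5*, a class the files do not explain, with 7A1 matches to miR-27-3p, miR-103/107 and miR-18-5p. It held 2.12, 0 and 2.58 normalized reads in WT and 10.9, 14.2 and 2.87 in G12D. The groups did not overlap, but the lowest G12D library barely exceeded the highest WT library. Its log2 fold change was 1.99 ± 0.75 (SE, limma adjusted p = 0.0440). It passed the filter on the mean through its G12D values alone, which favours a rise. From 3 WT and 83 G12D reads, the ratio of the groups was 6.16, with a counting interval of 2.03 to 30.5. The call was lost in 10 of 16 alternatives, among them edgeR (adjusted p = 0.112), DESeq2 (adjusted p = 0.126), thinning (limma adjusted p = 0.0606) and the fits without WT replicate 1 or 2 or G12D replicate 1 or 2.

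Smad7 peak 2 (75371487 to 75371549) is the only intron peak of the gene, with 7m8 matches to miR-328-3p and miR-147-3p. Its values were 2.12, 0 and 0 in WT and 2.18, 5.36 and 12.2 in G12D. With a mean under 5 it was not tested; 1 WT read and 45 G12D reads gave a ratio of 10 with a counting interval of 1.71 to 404. Peaks 3 (75375878 to 75375947) and 4 (75393866 to 75393903) are in the exon class, peak 4 only 37 bases before the let-7 peak. Peak 3 carries a 7A1 match to miR-378-3p and peak 4 a 6mer match to miR-16-1-3p. Their log2 fold changes of 0.32 ± 0.64 and 1.17 ± 0.86 did not pass (SE, limma adjusted p = 0.694 and 0.271). Peak 7, in the 3′ UTR (75395090 to 75395184), has a 7m8 match to miR-671-5p and held 14.9, 11.6 and 18.0 in WT against 12.0, 8.67 and 8.62 in G12D. Its groups overlapped, and its log2 fold change of −0.55 ± 0.50 did not pass (SE, limma adjusted p = 0.373).

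Acvr1b lies on the plus strand of chromosome 15 (101174072 to 101213684, GRCm38). Of its 8 peaks, 7 are in the 3′ UTR and 1 in an intron, and of the 7 tested limma called 2 higher in G12D and 0 lower, beside 36.2% and 12.7% of all tested peaks. The rises were at the intron peak and at a 3′ UTR peak with a miR-15/16 match. Its strongest WT peak, with a miR-484 8mer, had lower values in all 3 G12D libraries; limma's adjusted p just missed the threshold (1 Acvr1b peak had an unadjusted p under 0.05 in this direction), while edgeR and DESeq2 each called 1 Acvr1b peak lower.

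The intron peak, Acvr1b peak 1 (101196018 to 101196132), is annotated with 5 miR-15/16 and 3 miR-194-5p matches of the 7m8 class. These 8 matches of 7m8 or longer in 115 bases are the most of all 5448 peaks with a gene, and no other peak has as many. The count is not adjusted for peak width. Whether the matches overlap was not checked, so they need not be 8 separate sites. Acvr1b peak 1 held 0, 0 and 1.29 normalized reads in WT and 13.1, 11.8 and 10.8 in G12D. The log2 fold change was 3.28 ± 0.60 (SE, limma adjusted p = 0.00129), and relative to the other Acvr1b peaks it rose by 2.90 ± 0.72 (limma diffSplice adjusted p = 0.00216). The peak stands in the G12D list only and passed the filter (a mean of at least 5 over all 6 libraries) through its G12D values alone, which favours a rise; of tested peaks in that list only, 47.0% were higher. The WT group rests on 1 read against 84 in G12D, a ratio of 18.7 with a counting interval of 3.26 to 747. With every library thinned to the smallest total the change was 2.25 and just missed the threshold (limma adjusted p = 0.0518).

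Acvr1b peak 5, in the 3′ UTR (101211492 to 101211552), has a 7m8 match to miR-15/16 and 6mer matches to miR-10-5p and miR-16-1-3p. Its values were 2.12, 5.80 and 0 in WT and 33.8, 18.2 and 13.6 in G12D, with no overlap. It rose by 2.95 ± 0.77 on the log2 scale (SE, limma adjusted p = 0.00866), and by 2.51 ± 0.72 relative to the other Acvr1b peaks (limma diffSplice adjusted p = 0.00754). This peak too stands in the G12D list only and passed the filter through its G12D values, so a rise was favoured (47.0% of such listed peaks were higher). From 3 WT and 138 G12D reads the ratio was 10.2, with a counting interval of 3.43 to 50.2. The rise was not called without G12D replicate 1 (limma adjusted p = 0.0597; diffSplice 0.0884) or after thinning (limma adjusted p = 0.0941). Over all tested peaks with a miR-15/16 7m8 match, 51 of 152 were higher and 19 lower. Those with a miR-194-5p 7m8 match counted 43 higher and 10 lower of 108. Of all tested peaks, 36.2% were higher and 12.7% lower.

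The miR-484 peak, Acvr1b peak 6 (101212439 to 101212514), stands in both lists and also has 7m8 matches to miR-19-3p and miR-24-3p. It carries a 7A1 match to miR-324-3p and a 6mer match to miR-15/16 as well. It held 65.8, 58.0 and 61.9 in WT and 10.9, 42.9 and 34.5 in G12D. The WT libraries lay close together and the G12D libraries apart, with replicate 1 lowest, and the groups did not overlap. The log2 fold change was −1.25 ± 0.48 (SE, limma adjusted p = 0.0504). It passed in 7 of 18 alternatives, among them edgeR (adjusted p = 0.00412), DESeq2 (0.0176) and the fit without G12D replicate 2 (limma, 0.0445). Relative to the other Acvr1b peaks it fell by 2.39 ± 0.72 (SE, limma diffSplice adjusted p = 0.0110), a call lost with quantile normalization (0.114) and without G12D replicate 1 (0.153). Those other peaks include peaks 1, 5 and 7, with WT means of 0.43, 2.64 and 4.31. These passed the filter through their G12D values, which favours a relative fall of peak 6. The share of Acvr1b reads at peak 6 was 52.9% ± 10.8 in WT and 25.1% ± 13.4 in G12D (SD, n = 3, exact permutation p = 0.1).

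Of the remaining 3′ UTR peaks of Acvr1b, peak 2 (101210926 to 101211016) carries 7m8 matches to both let-7 and miR-484 and stands in both lists. It held 17.0, 20.3 and 19.3 in WT and 10.9, 10.9 and 15.1 in G12D. Again the groups did not overlap, yet the log2 fold change of −0.59 ± 0.46 did not pass (SE, limma adjusted p = 0.294). Peak 4 (101211215 to 101211243) has no annotated seed match. It held no read in WT and 31 reads in G12D (8.72, 2.06 and 9.34 normalized reads). Pooled over libraries, this is a ratio of 2.30 against a floor of 3 counts over the WT group, with counting error in G12D left out. Peaks 3 (101211106 to 101211194), 7 (101212627 to 101212699) and 8 (101213543 to 101213593) had log2 fold changes of 0.57, 1.01 and −0.39. None of these passed (limma adjusted p = 0.511, 0.317 and 0.551). Peak 7 has a 7m8 match to miR-484 and a 6mer match to miR-15/16, and peak 8 a 6mer match to let-7. Matches of any class to miR-15/16 are annotated at 5 of the 15 member peaks, Acvr1b peaks 6 and 7 among them.

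**Figure D3:**
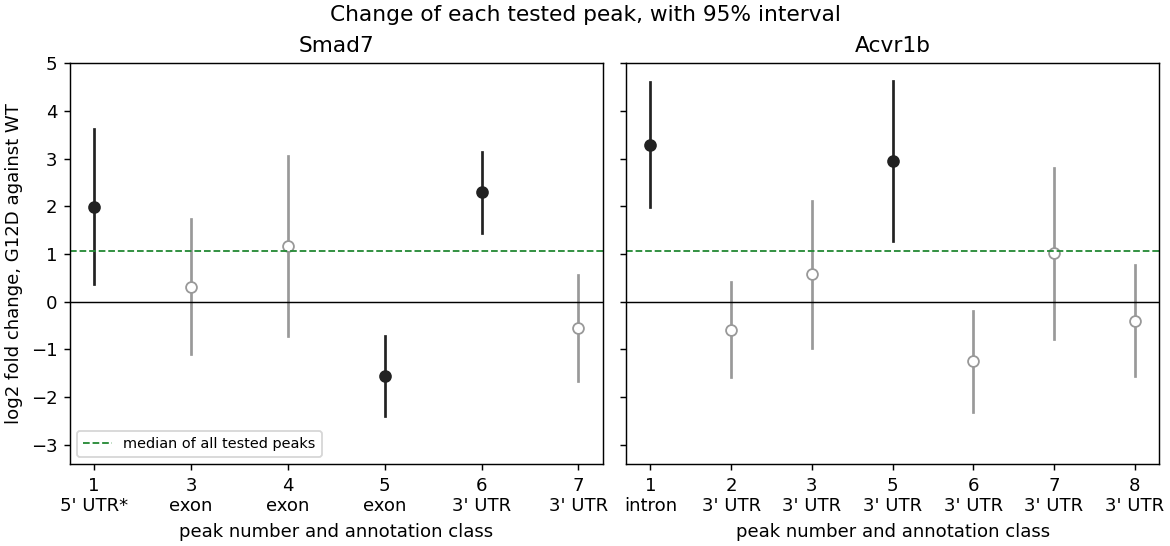
Log2 fold change (G12D against WT) of the 6 tested Smad7 peaks and 7 tested Acvr1b peaks in order along each gene, with unadjusted 95% intervals from limma. Filled points passed the adjusted threshold of 0.05, the dashed line is the median of all tested peaks (1.05), and Smad7 peaks 5 and 6 lie on opposite sides of 0.

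Counted together, 4 of the 13 tested peaks were higher, 1 was lower and 8 did not pass, with a median log2 fold change of 0.57. Of the 13, 5 had a WT mean under 5 and so passed the filter through G12D, and they include 3 of the 4 higher peaks; the counts are therefore given as a description. Over all tested peaks 36.2% were higher and 12.7% lower, so the members' counts are near the background. The groups did not overlap at 9 of the 15 peaks, 6 with G12D above and 3 with G12D below, while over all peaks 50.1% lay above and 12.1% below. Having at least 1 called peak in each direction, as Smad7 does, was found in 16.0% of 835 genes with 2 or more tested peaks. In the authors' deposited table, 3 Smad7 peaks (2, 5 and 6) and 3 Acvr1b peaks (1, 4 and 5) have an adjusted p below 0.05. How many of all peaks pass in that table was not counted, so no background stands beside these counts. Smad7 peak 2 and Acvr1b peak 4, not tested here, rest on 1 and 0 WT reads. The deposited table lists log2 fold changes of −1.62 for the let-7 peak and 2.31 for the miR-15/16 peak of Smad7.

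When all peaks of a gene were summed, neither gene changed past the threshold, whereas 50.0% of 2245 gene totals did. The Smad7 total was 223, 116 and 162 normalized reads in WT and 192, 170 and 198 in G12D. Its log2 fold change was 0.21 with a 95% interval of −0.43 to 0.85 (limma adjusted p = 0.580). The Acvr1b total was 117, 142 and 101 in WT and 109, 120 and 117 in G12D, a change of −0.04 with an interval of −0.63 to 0.54 (limma adjusted p = 0.908). The direction of both small changes depends on the scaling and the libraries used. In mean total Smad7 ranked 126 and Acvr1b 216 of 2568 genes with a peak, and in number of peaks 82 and 59.

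The let-7 and miR-15/16 families, which have the 8mer matches at Smad7 peaks 5 and 6, had no member that changed past the threshold in the Ago2-bound pool. Over 254 tested miRNAs, limma called 9.06% higher and 6.69% lower in G12D. The 9 let-7 family members summed to 12710, 9259 and 14590 normalized reads in WT and 12490, 18030 and 10630 in G12D, with overlapping groups. The 6 miR-15/16 members summed to 5406, 4047 and 5604 in WT and 5247, 7005 and 4950 in G12D. The values of miR-484 were 1738, 1711 and 1251 in WT and 1724, 1359 and 1460 in G12D. Among the tested members of these 3 families limma, edgeR and DESeq2 each called 0, and limma gave 0 with an unadjusted p under 0.05. The log2 fold changes were −0.00 ± 0.23 for let-7b-5p, 0.07 ± 0.24 for miR-16-5p and −0.04 ± 0.25 for miR-484 (SE, limma adjusted p = 0.996, 0.865 and 0.944).

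**Figure D4:**
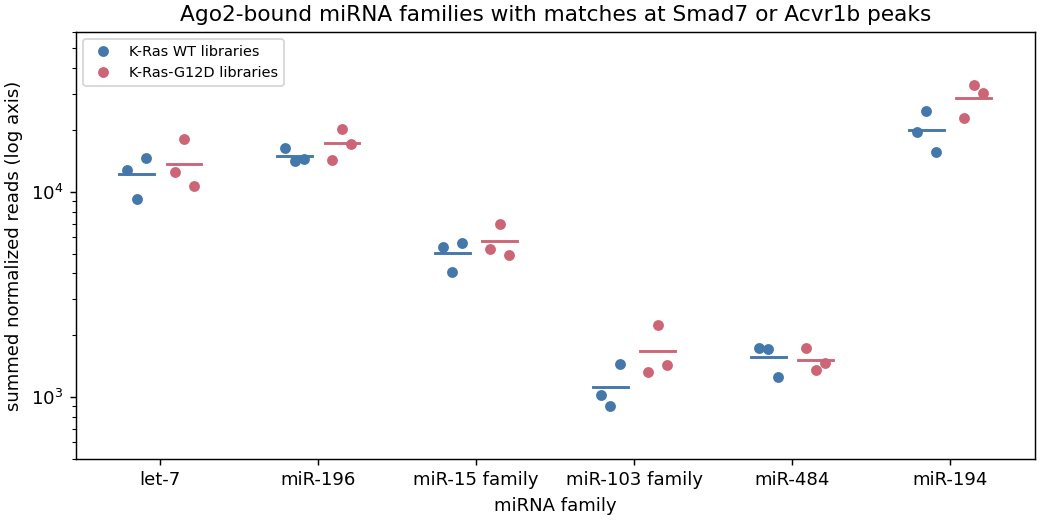
Summed normalized reads of 6 miRNA families in the 3 WT and 3 G12D miRNA libraries (log axis), with 1 point per library and a line at each mean. The WT and G12D points overlap for each of the 6 families.

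In all, 25 miRNA families are annotated at the 15 peaks, 9 of them with a 7m8 or 8mer match. The miRNA table holds 54 of their members, and of the 49 tested 4 were higher and 2 lower, beside 9.06% and 6.69% of all 254 tested miRNAs. The calls below are therefore given as a description. At the intron peak of Acvr1b, the family member miR-194-5p held 19630, 24800 and 15670 normalized reads in WT and 22880, 33180 and 30340 in G12D. Its groups overlapped, and its log2 fold change of 0.53 ± 0.18 passed (SE, limma adjusted p = 0.0339) but was lost in 10 of the alternatives, edgeR and DESeq2 among them. The other 3 that rose match only as 7A1 or 6mer. The log2 fold change was 1.11 for miR-27a-3p (Smad7 peak 1), 1.16 for miR-205-5p (Acvr1b peak 3) and 0.86 for miR-210-3p (Smad7 peak 2; limma adjusted p = 5.6e-05, 0.00123 and 0.00321). The call of miR-210-3p was lost with equal totals (limma adjusted p = 0.0602) and without the variance trend (0.0640), and that of miR-27a-3p without the trend (0.0585). Both miRNAs that fell match Smad7 peak 7, miR-671-5p by −1.23 and miR-449a-5p by −1.27 (limma adjusted p = 0.0199 and 0.0383), and each call was lost in 6 alternatives or more. The match of miR-449a-5p is a 6mer, and its means were only 39.3 normalized reads in WT and 16.3 in G12D. The most abundant member of its family, miR-34a-5p, had means of 4596 and 4065 and did not pass (−0.20, limma adjusted p = 0.609). The leading miRNAs of the other 7m8 families did not pass, with 0.46 for miR-19b-3p (groups not overlapping), 0.24 for miR-24-3p (also not overlapping), 0.20 for miR-328-3p and −0.17 for miR-147-3p.

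Other genes of the pathway were read from a list of 55 ligands, receptors, SMADs, regulators and targets; 10 of them had a peak, with 13 peaks in all. None of the 10 ligands had one. Of 11 tested peaks limma called 5 higher and 0 lower, with a median of 1.65, beside 36.2%, 12.7% and 1.05 over all tested peaks. With quantile normalization 1 was higher. A WT mean under 5 was found at 6 of the 11, among them 4 of the 5 higher peaks, which passed the filter through G12D. In the main test 1 had an unadjusted p under 0.05 in the lower direction, and edgeR and DESeq2 each called 1 lower. Among receptors, Bmpr1a, a type I BMP receptor, was at 0 in all 3 WT libraries and at 15.3, 14.9 and 4.31 in G12D. Its exon peak had 0 WT and 92 G12D reads. Pooled over libraries, this is a ratio of 6.82 against a floor of 3 counts over the WT group, with counting error in G12D left out. Limma called the peak higher (adjusted p = 0.000946), except with quantile normalization (0.105), but it passed the filter through its G12D values alone.

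Smad6, the other inhibitory SMAD, also has an exon peak with a let-7 8mer listed in both genotypes. It held 51.0, 40.6 and 25.8 in WT and 19.6, 13.8 and 23.7 in G12D. All G12D libraries were below all WT libraries, but the log2 fold change of −0.98 ± 0.43 did not pass (SE, limma adjusted p = 0.0770). It passed with edgeR (adjusted p = 0.00640), DESeq2 (0.0176), thinning (limma, 0.0238) and without WT replicate 3 (limma, 0.0422). A let-7 8mer peak in the 3′ UTR of Skil, which encodes a repressor of SMAD-driven transcription, went the other way. It held 2.12, 5.80 and 3.87 in WT and 55.6, 22.3 and 42.4 in G12D and rose by 3.04 ± 0.56 (SE, limma adjusted p = 0.00135), a call kept in each alternative that tested it. However, this peak stands in the G12D list only. With a WT mean of 3.93 it passed the filter through its G12D values, which favours a rise.

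Of the other regulators, the stronger, exon peak of Rnf111, a ubiquitin ligase that acts on inhibitors of the pathway, did not pass (−0.48, limma adjusted p = 0.410). Its 3′ UTR peak, with a WT mean under 5 and named after its values were seen, rose by 2.54 (limma adjusted p = 0.0124) but was not called with quantile normalization (0.182) or without G12D replicate 1 or 2 (0.0518 and 0.0644). The peak of Ski, a repressor related to Skil, did not pass (1.65, limma adjusted p = 0.0986). Among targets, the 3′ UTR peak of Myc, which TGF-beta signalling represses in epithelia, rose by 1.18 (limma adjusted p = 0.0237). That call was lost in 8 alternatives, edgeR (adjusted p = 0.253), DESeq2 (0.121) and the fits without WT replicate 3 or any 1 of the G12D libraries among them. For Cdkn1a, the cell cycle inhibitor p21, the stronger peak did not pass (1.96, limma adjusted p = 0.0694), though its groups did not overlap. It passed with a pseudocount of 5 (0.0352), equal totals (0.0371), the replicate block (0.0438) and without WT replicate 3 (0.0389), and without WT replicate 2 its change was 0.93. The other peak, named after its values were seen, rose by 2.50 (limma adjusted p = 0.00554), except with quantile normalization (0.0506) or thinning (0.119). With a WT mean of 2.10 it passed the filter through its G12D values, which favours a rise. Smad5 and Klf10 did not pass (limma adjusted p = 0.302 and 0.839).

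The genes whose peak totals followed those of Smad7 most closely over the 6 pulldown libraries were Slc9a3r1, Myh9 and Adra2a, with Pearson's r of 0.887, 0.871 and 0.858 among 248 genes of similar mean. For Acvr1b they were Sh3glb1, Ndrg1 and Slc35d2, with 0.779, 0.655 and 0.614 among 383 genes. These are the highest of many values over 6 libraries that share their scaling, given as a description.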

How the data were processed

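Per the labels, pulldown and miRNA libraries were made by HEAP from 3 WT and 3 G12D samples each. The submitters' processing notes name STAR 2.5.2b, DESeq2 and GRCm38 (mm10). The deposited peak and miRNA tables hold normalized read signal per library, which the authors divided by library factors; 100% of values were whole multiples of 1 read within 0.01, so reads were recovered. The authors' deposited tables also give log2 fold changes, p-values adjusted for multiple tests, and a peak score per genotype list. The peak table's columns were taken as the pulldown libraries by their names.

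Values were tested as log2(normalized reads + 1) with limma 3.58.1 (variance trend; mean of at least 5 for peaks and gene totals, 10 for miRNAs), Benjamini-Hochberg adjustment over all features and a threshold of 0.05. Peaks were tested against their gene's others with diffSplice, and shares with exact permutation tests. Alternatives were pseudocounts of 0.5 and 5, no filter or a mean of 20, equal totals, quantile normalization, a replicate block, no variance trend, each library left out, thinning to 54401 (peaks) or 337788 (miRNAs) reads, and edgeR 4.0.16 and DESeq2 1.42.0 on recovered reads. The scripts were tested on simulated data. The simulated counts had the same dispersion for all features, changes in random direction and fewer changed peaks than were called in the data. Recovery in the simulation therefore need not hold for the real libraries. In the simulation the peak test recovered 3.0% of 2-fold, 52.2% of 4-fold and 92.4% of 8-fold changes. For gene totals these were 14.9%, 67.2% and 93.9%, for miRNAs 55.8%, 97.6% and 100%, and for diffSplice 3.0%, 23.9% and 68.2%. A result that did not pass therefore does not show the lack of a change. Depth was 54401 to 723937 reads in peaks and 337788 to 535932 in miRNAs.

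Members and lists were chosen with earlier results of these data known. Named were all member peaks; of each annotated miRNA family the most abundant member and further called ones, though families with only 7A1 or 6mer matches and no call were counted, not named, for length; the strongest peak of up to 4 TGF-beta genes per role; and the 3 genes most correlated with each member. Input libraries were not analysed here. No genome of the build was used, so target sites are given by position and match class.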

Additional observations from a re-analysis of the deposited data

How the results depend on the processing

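Depth limits the peaks with 0 to 3 WT reads (Smad7 peaks 1 and 2, Acvr1b peaks 1, 4 and 5), for which a WT level cannot be separated from 1 or 2 reads. Replicate numbers did not pair the pulldown libraries (correlations of deviations 0.041, −0.036 and −0.008) or the miRNA libraries (0.000, −0.422 and −0.318), and no number marks a shared animal in the labels. With the replicate block, 2 member peaks were lower in place of 1 and 0 family miRNAs were lower in place of 2. For diffSplice the fit without a variance trend was not run, because diffSplice takes none, and neither were thinning, edgeR or DESeq2, so the calls against the other peaks of a gene were not recomputed under these. The cause of the following changes was not tested.

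Of member peaks, 4 were higher, but 1 with a mean of 20, 1 after thinning and 2 to 4 with a library left out. With a mean of 20 only Smad7 peaks 5 and 6 and Acvr1b peak 6 were tested, and all of these were called. Lower peaks numbered 1, but 2 with a pseudocount of 5, a mean of 20, quantile normalization, edgeR or DESeq2, and 1 to 2 with a library left out. Against the other peaks of the gene, 3 were higher and 2 lower. A mean of 20 gave 1 and 1, quantile normalization gave 0 lower, and leaving out a library gave 1 to 4 higher and 0 to 3 lower. With a mean of 20, Smad7 peaks 5 and 6 were each tested against the other alone (−3.85 and 3.85). These 2 calls are therefore 1 contrast. TGF-beta list peaks called higher went from 5 to 2 with a mean of 20, 1 with quantile normalization and 3 to 6 with a library left out. Of this list, only the peaks of Smad6 and Myc, the let-7 peak of Skil and the exon peak of Rnf111 were tested with a mean of 20. List peaks called lower went from 0 to 1 with edgeR, DESeq2 or thinning and were 0 to 1 with a library left out. Family miRNAs called higher went from 4 to 2 with equal totals and 1 without the variance trend; those called lower went from 2 to 4 with equal totals, 1 with no filter, 1 without the trend and 0 to 3 with a library left out.

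Changes of direction occurred only in values that did not pass. With quantile normalization the log2 fold change was −0.30 for Acvr1b peak 3, −0.76 for Acvr1b peak 7, −1.13 for Smad7 peak 3 and −0.26 for Smad7 peak 4. edgeR gave −0.19 for Acvr1b peak 3, −0.30 for Smad7 peak 3 and −0.28 for the Smad7 total, and DESeq2 gave −0.0047, −0.12 and −0.23 for these. Thinning gave 0.41 for Acvr1b peak 8, −0.17 for Smad7 peak 3 and 0.10 for the Acvr1b total, which was 0.11 with equal totals. With a library left out, the ranges were −0.14 to 1.14 for Acvr1b peak 3, −0.055 to 0.73 for Smad7 peak 3, −0.031 to 0.44 for the Smad7 total and −0.16 to 0.088 for the Acvr1b total. Against the other peaks, Acvr1b peak 3 was at 0.0022 with a pseudocount of 5 and −1.02 to 0.17 with a library left out. Acvr1b peak 7 was at −0.034 with no filter, −0.73 with quantile normalization and −0.58 to 0.72 with a library left out. Smad7 peak 3 ranged from −0.60 to 0.080, and Smad7 peak 4 from −0.46 to 1.41 and was −0.018 with quantile normalization. Quantile normalization also gave −1.12 for the peak of Klf10, −0.14 for Ski and −0.50 for Smad5; Klf10 was at −0.53 with edgeR, −0.26 with DESeq2 and −0.30 to 0.55 with a library left out.

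For miRNAs the median log2 fold change of 0.11 was −0.26 with equal totals, −0.13 with edgeR and 0.01 with quantile normalization. Equal totals gave −0.29 for miR-16-5p, −0.24 for miR-196b-5p, −0.12 for miR-24-3p and −0.16 for miR-328-3p. Quantile normalization gave −0.067 for miR-16-5p, −0.14 for miR-196b-5p and −0.10 for miR-24-3p. edgeR gave −0.15 for miR-16-5p, −0.071 for miR-196b-5p and −0.062 for miR-328-3p, and DESeq2 −0.0087 for miR-16-5p. Thinning gave 0.0062 for let-7b-5p. With a library left out let-7b-5p ranged from −0.19 to 0.15, miR-16-5p from −0.10 to 0.26, miR-34a-5p from −0.33 to 0.025 and miR-484 from −0.19 to 0.042.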
